A study of Saccharomyces cerevisiae with 12 samples.

Results

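The question was whether the difference in mRNA levels between the mutagenised α-amylase strain MH34 and its ancestor AAC depended on the dilution rate. The data were 8 of the 12 libraries of the series, both replicates of AAC and of MH34 at a dilution rate of 0.1/h and at one of 0.2/h, and the measure was the difference of differences per gene, (MH34 minus AAC at 0.2/h) minus (MH34 minus AAC at 0.1/h), on the log2 scale. It is called the interaction. A positive interaction says that the strain effect, MH34 minus AAC, was higher at the faster rate, or equally that the rate effect, 0.2/h minus 0.1/h, was higher in MH34 than in AAC. AAC is Saccharomyces cerevisiae CEN.PK 530-1C, of mating type a, with most of TPI1 replaced by a loxP-flanked KanMX4 cassette, and it carries the 2 µm plasmid pAlphaAmyCPOT. On the plasmid, the TPI1 promoter and terminator and the α-factor leader frame the α-amylase gene, and Schizosaccharomyces pombe POT1 is the marker. MH34 was isolated from AAC after UV mutagenesis and carries the same deletion and plasmid, and B184 was isolated from MH34 in the same way. B184 is not a term of the interaction and served for comparison. Its libraries were also part of the fit of all 12, and so of its count filter, its normalization and its shared estimate of the spread. All were grown as carbon-limited chemostats at 30°C. At 0.1/h, the cultures of MH34 and B184 were given ethanol against oscillations and those of AAC were not, so at this rate the strain and the ethanol cannot be told apart. Each strain is 1 isolate, and the replicates are labelled biological. Of 7126 genes counted, 6044 had enough counts to enter the quasi-likelihood fit of edgeR. P-values were adjusted over all 6044 by the method of Benjamini and Hochberg, and a gene was called where the adjusted p was below 0.05.

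In a chemostat, the feed rate of the limiting nutrient sets the growth rate, so dilution rates are growth rates. Budding yeast is known to raise the transcripts of ribosomal proteins as it grows faster. Genes for the use of nonfermentable carbon, for fat oxidation and for stress protection are known to be repressed when glucose or growth rate rises. Ethanol is oxidised through acetaldehyde and acetate to acetyl coenzyme A, and growth on it needs the glyoxylate cycle and gluconeogenesis.

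Libraries of the 4 groups held 6040221 to 9816482 counts. Replicates correlated across 5543 genes with a Pearson r of 0.979 (AAC at 0.1/h) to 0.998 (MH34 at 0.1/h) among these groups, where genes are not independent replicates. The counts of AAC replicates at 0.1/h differed most, by a chi-square of 29.5 per degree of freedom, followed by those of MH34 at 0.2/h (25.6) and AAC at 0.2/h (22.2), against 3.13 in MH34 at 0.1/h. Values per library are CPM, the counts scaled to a common library size with TMM factors. All 8 libraries held transcripts of the a-specific genes, with summed levels of 1951 to 4526 CPM over 7 genes. They also held transcripts of 4 α-specific genes, which summed to 532.7 to 1783 CPM. Among these, the α-factor gene MF(ALPHA)1, whose leader the plasmid carries, was at 939 and 471 CPM in AAC at 0.1/h. SAG1 was at 85.3 and 78.9 CPM there and STE3 at 36.6 and 34.6 CPM, above the a-specific gene ASG7 at 18.3 and 17.6 CPM. These markers were thus not a clean check of the mating type. Reads on TPI1 (YDR050C, chromosome IV, 555726 to 556472), most of which is deleted in all strains, remained at 64.9 and 60.0 CPM in AAC at 0.1/h, 17.4 and 19.6 CPM in AAC at 0.2/h, 15.0 and 14.8 CPM in MH34 at 0.1/h and 25.03 and 21.7 CPM in MH34 at 0.2/h. The interaction of TPI1 was 2.40 ± 0.20 (SE, adjusted p = 5.94e-06), and what part of the gene these reads came from was not analysed here.

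The strain effect of MH34 differed between the rates in 3212 of the 6044 genes, 53.1% of those tested, with 1607 higher and 1605 lower at the faster rate. In the rest of the text, "higher" and "lower" of a call mean the sign of this interaction, and the background for a list is 26.6% called higher and 26.6% called lower over all genes tested. With an absolute log2 interaction of at least 1 also required, 958 genes were left, of which 373 were higher and 585 lower. The median standard error was 0.14 on the log2 scale. At an unadjusted p under 0.05, 3544 genes (58.6%) would have passed. The MH34 strain effect was called in 4160 genes (68.8%; 35.5% higher and 33.3% lower in MH34) at 0.1/h and in 2000 genes (33.1%) at 0.2/h, and its median absolute size over all genes was 0.48 at 0.1/h and 0.21 at 0.2/h. Of the 3212 genes, 2045 (63.7%) were called between the strains at 0.1/h only, 313 at 0.2/h only, 446 at both rates with the same sign, 339 at both rates with opposite signs and 69 at neither. The absolute strain effect was larger at 0.1/h in 2654 of them (82.6%). The same calls can be read as rate effects. In AAC, 4121 genes (68.2%) responded to the rate, 32.7% of those tested upwards and 35.5% downwards, against 1619 (26.8%) in MH34. Of the 1607 genes with a higher interaction, 1191 fell with the rate in AAC and had no call in MH34, and of the 1605 with a lower interaction, 1004 rose in AAC and had no call in MH34. The number of rate calls in MH34 depended on its libraries, with 433 without replicate 1 at 0.1/h, 551 without replicate 2 at 0.1/h and 585 without replicate 2 at 0.2/h.

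**Figure D1:**
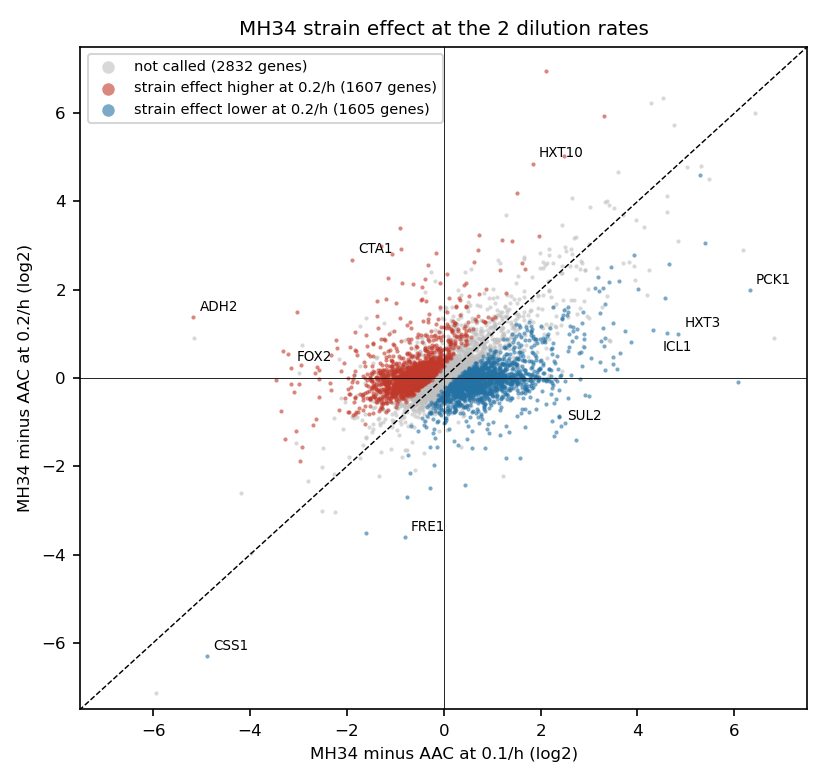
Strain effect of MH34 (MH34 minus AAC, log2) at 0.1/h on the horizontal axis and at 0.2/h on the vertical axis, 1 point per gene for the 6044 genes tested, coloured by the call of the interaction; the dashed line marks equal effects. Of the 3212 coloured points, 2045 have a called strain effect at 0.1/h only and so spread along the horizontal axis; ADH2 lies far above the line, and PCK1, HXT3 and ICL1 lie far below it.

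The largest negative interaction among the genes that met the rule for naming was that of a gluconeogenic gene. PCK1, for phosphoenolpyruvate carboxykinase, the first committed enzyme of gluconeogenesis (YKR097W, chromosome XI, 631152 to 632801), was at 22.9 and 37.7 CPM in AAC at 0.1/h, 27.9 and 25.2 CPM in AAC at 0.2/h, 2305 and 2568 CPM in MH34 at 0.1/h and 99.9 and 110.3 CPM in MH34 at 0.2/h. It was thus high in MH34 at 0.1/h and low in the other groups, none of which overlapped it, and the strain effect of 6.32 at 0.1/h shrank to 1.98 at 0.2/h, an interaction of −4.34 ± 0.32 (SE, adjusted p = 6.00e-06). ICL1, for isocitrate lyase of the glyoxylate cycle, followed the same order, with 72.2 and 132 CPM in AAC at 0.1/h, 106 and 97.5 CPM in AAC at 0.2/h, 2476 and 2539 CPM in MH34 at 0.1/h and 179 and 237 CPM in MH34 at 0.2/h, and its interaction was −3.58 ± 0.34 (SE, adjusted p = 3.09e-05). MLS1, for the malate synthase that follows it, had an interaction of −1.90 ± 0.38 (SE, adjusted p = 0.00277), with 1972 and 2133 CPM in MH34 at 0.1/h against 386 and 264 CPM at 0.2/h. FBP1, for fructose-1,6-bisphosphatase, was higher in MH34 at both rates, by 2.22 and 1.84, and its interaction of −0.38 was not called (adjusted p = 0.343). Of the 16 genes listed for gluconeogenesis and the glyoxylate cycle, 5 were called lower, PCK1, ICL1, MLS1, the malate dehydrogenase gene MDH2 at −0.87 and the isocitrate dehydrogenase gene IDP2 at −0.75, and 3 higher, ICL2 at 2.25, the acetyl-CoA synthetase gene ACS1 at 2.23 and the monocarboxylate transporter gene JEN1 at 2.13. The count of higher members was 6 without replicate 1 of AAC at 0.1/h and 1 without either MH34 replicate at 0.1/h or without replicate 2 of AAC at 0.2/h, and that of lower members was 8 without replicate 2 of AAC at 0.1/h. ACS1 was not called without either MH34 replicate at 0.1/h or without replicate 2 of AAC or of MH34 at 0.2/h. Nor was it called in the fit of the 8 libraries of AAC and MH34 alone. The MH34 and B184 cultures at 0.1/h had received ethanol, and in B184 PCK1 was also higher at 0.1/h (686 and 547 CPM) than at 0.2/h (93.1 and 124 CPM). The part of the ethanol was not tested.

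The regulatory sequence that these genes are known to share is the carbon source-responsive element, bound by Cat8 and Sip4. It was searched on both strands as CCNNNNNNCCG, where N is any base. A match upstream of each of the called genes PCK1, ICL1 and MLS1 is printed as 30 bases in the direction of the gene, from the R64 genome of RefSeq, with the match in capitals. PCK1 and MLS1 held further matches.
PCK1, chrXI:630662-630691, gene on the plus strand: accgagcttCCTTTCATCCGgcgcggctgt
ICL1, chrV:287292-287321, gene on the minus strand: cccaggtttCCATTCATCCGagcgatcact
MLS1, chrXIV:405849-405878, gene on the plus strand: tcatagcttCCATTGGGCCGatgaagttag
These matches began 481, 398 and 500 bases before the coding start. Between 250 bases before and 50 after the start, the window fixed in the design, 2 of the 16 genes of the list held a match (12.5%), against 10.2% of all genes tested. Within 600 bases before the start, a window chosen after the data were seen, 11 of the 16 genes of the list held a match (68.8%), against 24.6% of all genes tested, 26.5% of those called higher and 22.7% of those called lower. The share of the list thus depends on the window. The element was not particular to genes called lower. In the list of fatty acid oxidation and the carnitine shuttle, where 12 genes were called higher and 4 lower, 7 of 22 held a match in the fixed window (31.8%). Within 600 bases, 12 of these 22 did (54.5%). A match is a run of letters and no evidence of binding.

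Genes of ethanol and fat oxidation had the 2 largest positive interactions, those of ADH2 and CTA1. ADH2, for the alcohol dehydrogenase that oxidises ethanol (YMR303C, chromosome XIII, 873291 to 874337), was at 393 and 891 CPM in AAC at 0.1/h, 13.0 and 3.71 CPM in AAC at 0.2/h, 19.4 and 16.2 CPM in MH34 at 0.1/h and 9.71 and 33.1 CPM in MH34 at 0.2/h. AAC at 0.1/h was thus above the other 6 libraries and differed more than 2-fold between its replicates, and the interaction was 6.55 ± 1.02 (SE, adjusted p = 0.00138). The strain effect was −5.17 at 0.1/h, and that at 0.2/h, 1.38, was not called. ALD4, for the mitochondrial aldehyde dehydrogenase, was at 4657 and 7513 CPM in AAC at 0.1/h, 1041 and 517 CPM in AAC at 0.2/h, 1359 and 1235 CPM in MH34 at 0.1/h and 1540.0 and 1277 CPM in MH34 at 0.2/h, with an interaction of 3.08 ± 0.44 (SE, adjusted p = 3.99e-04). ADH1, for the alcohol dehydrogenase that forms ethanol, went the other way, with an interaction of −1.84 ± 0.28 (SE, adjusted p = 4.22e-04), as did the pyruvate decarboxylase genes PDC5 at −1.65 and PDC1 at −0.69. Of the 16 alcohol and aldehyde genes, 2 were called higher and 6 lower. At 0.1/h, ethanol had been given to MH34 and B184 and not to AAC. B184 at this rate held 11.9 and 10.81 CPM of ADH2 and 915 and 1016 CPM of ALD4, also below AAC. The part of the ethanol was not tested for these genes either.

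CTA1, for the peroxisomal catalase that removes the peroxide of fat oxidation, was at 242 and 563 CPM in AAC at 0.1/h, 16.5 and 10.81 CPM in AAC at 0.2/h, 114 and 102 CPM in MH34 at 0.1/h and 95.9 and 79.8 CPM in MH34 at 0.2/h. It changed order between the rates, with a strain effect of −1.90 at 0.1/h and of 2.68 at 0.2/h, an interaction of 4.59 ± 0.59 (SE, adjusted p = 5.51e-04). FOX2, for the multifunctional enzyme of β-oxidation, was at 437 and 904 CPM in AAC at 0.1/h, 74.0 and 55.2 CPM in AAC at 0.2/h, 75.9 and 74.2 CPM in MH34 at 0.1/h and 77.0 and 75.3 CPM in MH34 at 0.2/h. Only AAC at 0.1/h stood out, and the interaction was 3.40 ± 0.44 (SE, adjusted p = 5.05e-04). Of 22 genes for fatty acid oxidation and the carnitine shuttle, 12 were called higher and 4 lower, and the median interaction was 0.77 (0.39 to 0.99 over the alternatives) against 0.02 over all genes. The higher members included the thiolase gene POT1 at 2.90, the acyl-CoA synthetase gene FAA2 at 2.74 (whose annotation overlaps BUD25), the acyl-CoA oxidase gene POX1 at 2.62 and the transcription factor gene PIP2 at 0.78. The lower members were the carnitine acetyltransferase genes YAT1 at −1.36 and YAT2 at −1.24, the carnitine carrier gene CRC1 at −0.95 and the peroxisomal ATP carrier gene ANT1 at −0.84. In summed level the list stood at 4307 and 6546 CPM in AAC at 0.1/h and 2502 and 2184 CPM at 0.2/h, while MH34 stood at 3927 and 3721 CPM at 0.1/h and 2650.2 and 2415 CPM at 0.2/h. AAC thus spanned the wider range, and its replicates at 0.1/h lay apart.

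The other genes among the 12 largest positive interactions fell with the rate in AAC. In SPG4, ATO2 and TMA10, AAC at 0.1/h lay above the other 6 libraries, while in YIG1, RGI2, ISF1 and CSM4 replicate 2 of AAC at 0.1/h lay above all MH34 libraries and replicate 1 below at least 1 of them. SPG4, named for survival in stationary phase, was at 316 and 1712 CPM in AAC at 0.1/h and 24.5 and 10.81 CPM at 0.2/h (interaction 4.53 ± 1.10 SE, adjusted p = 0.011). ATO2, for a putative ammonium exporter, fell from 1146 and 1724 CPM to 207 and 63.8 CPM in AAC (interaction 3.41 ± 0.76 SE, adjusted p = 0.00727). TMA10, for a ribosome-associated protein, was at 801 and 1881 CPM in AAC at 0.1/h, 127 and 182 CPM in AAC at 0.2/h, 539.6 and 489 CPM in MH34 at 0.1/h and 508 and 534 CPM in MH34 at 0.2/h (interaction 3.14 ± 0.50 SE, adjusted p = 0.00122). YIG1 had an interaction of 4.30 (adjusted p = 0.00942), and its replicates in AAC at 0.1/h were 119 and 532 CPM. RGI2, ISF1 and CSM4, at 4.30, 3.89 and 3.005, rested on few libraries. RGI2 lost its call in 9 of 18 alternatives, among them the fit of the 8 libraries alone and each fit without 1 library of MH34 or of AAC at 0.2/h. ISF1 lost it without either AAC replicate at 0.2/h or without replicate 1 of MH34 at 0.2/h. CSM4 lost it in 8, among them each fit without 1 of the 8 libraries other than replicate 1 of AAC at 0.1/h. HXT10, for a hexose transporter, was higher in MH34 at both rates, with 45.2 and 123 CPM in AAC at 0.1/h, 8.47 and 5.24 CPM in AAC at 0.2/h, 309 and 295 CPM in MH34 at 0.1/h and 254 and 145 CPM in MH34 at 0.2/h, and the strain effect grew from 1.84 to 4.86.

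**Figure D2:**
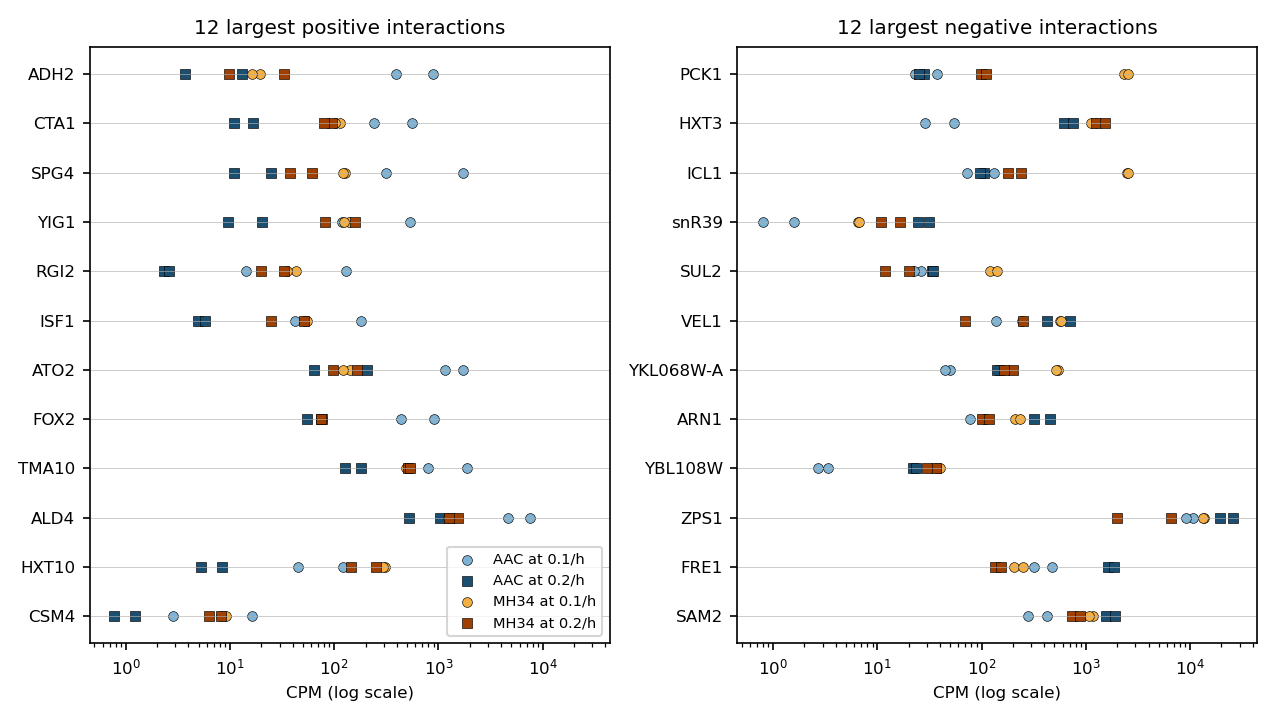
CPM (log scale) of the 12 genes with the largest positive (left) and the 12 with the largest negative interaction (right) among genes that met the rule, 1 point per library, with circles for 0.1/h, squares for 0.2/h, blue for AAC and orange for MH34. In the left panel AAC at 0.1/h lies highest for ADH2, CTA1, SPG4, ATO2, FOX2, TMA10 and ALD4, while in the right panel MH34 at 0.1/h lies highest for PCK1, ICL1, SUL2 and YKL068W-A.

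Glucose uptake genes were affected at the level of single transporters. HXT3, for a low-affinity glucose transporter, was at 54.5 and 29.0 CPM in AAC at 0.1/h, 614 and 759 CPM in AAC at 0.2/h, 1253 and 1128 CPM in MH34 at 0.1/h and 1242 and 1520.0 CPM in MH34 at 0.2/h. It was low only in AAC at 0.1/h, and its interaction was −3.83 ± 0.34 (SE, adjusted p = 1.60e-05). HXT4, another transporter of this family, was higher in MH34 at both rates and more so at 0.1/h, with an interaction of −1.65 ± 0.22 (SE, adjusted p = 1.02e-04). Of 16 hexose transporters tested, HXT3 and HXT4 were called lower and HXT10 higher, 18.8% in all against 53.1% of all genes. Without replicate 1 of MH34 at 0.2/h 4 were lower, and 3 were higher without replicate 1 of AAC at 0.1/h and 2 without replicate 2 of MH34 at 0.2/h. Of 15 genes for hexose phosphorylation and glucose sensing, 7 were called higher, among them GLK1 (glucokinase) at 1.34, MTH1 (a repressor of hexose transporter genes) at 1.36 and RGT2 (a glucose sensor) at 0.89, and only HXK2, for the main hexokinase, was lower, at −0.75. The lower count was 4 without replicate 1 of AAC at 0.1/h and 2 without replicate 1 of AAC at 0.2/h. GLK1 lost its call when length and GC trends were removed.

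In central carbon metabolism, the strain effect of most called genes was lower at 0.2/h. Of 14 glycolytic genes, 6 were called lower, from ENO1 (enolase) at −2.02 and TDH3 (glyceraldehyde-3-phosphate dehydrogenase) at −1.21 to ENO2 at −0.53. TPI1 was the only one higher, and 2 were higher without replicate 1 of AAC at 0.2/h. Most of TPI1 is deleted in all strains, so its reads are not those of an intact glycolytic gene. TDH3 has the near-identical copy TDH2, and how the authors assigned reads between such copies is not stated. ENO1 was at 1641 and 2083 CPM in AAC at 0.1/h, 4017 and 2852 CPM in AAC at 0.2/h, 3836 and 3750.0 CPM in MH34 at 0.1/h and 2157 and 1302 CPM in MH34 at 0.2/h, so the strain effect was 1.03 at 0.1/h and −0.99 at 0.2/h. Of 18 tricarboxylic acid cycle genes, 6 were called lower and 2 higher. In this list and in the glycolytic one, calls made up a smaller share than the 53.1% over all genes tested. The lower calls of the tricarboxylic acid cycle list were near the background of 26.6%, so its counts do not set it apart from all genes. The isocitrate dehydrogenase genes IDH1 and IDH2 had interactions of −1.89 and −1.51, and CIT2, the peroxisomal citrate synthase that is a known target of retrograde signalling, one of −2.37 ± 0.25 (SE, adjusted p = 2.86e-05). CIT2 was high in MH34 at 0.1/h alone, with 3868 and 3249.5 CPM against 1363 and 1349 CPM at 0.2/h. CIT3, a minor mitochondrial citrate synthase gene, and the succinyl-CoA ligase gene LSC2 had interactions of 2.60 and 0.99.

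Cytosolic ribosomal protein genes formed the largest block of lower interactions. Of 138 tested, 118 were called lower and 1, RPL15B at 1.03, higher, and 4 were higher without replicate 2 of AAC at 0.1/h. The median interaction was −1.07, with a range of −1.25 to −0.85 over the alternatives. The median strain effect was 1.121 at 0.1/h and 0.02 at 0.2/h. Summed over the list, AAC rose from 38155 and 30666 CPM at 0.1/h to 89738 and 94972 CPM at 0.2/h, and MH34 from 69704 and 72764 to 93403 and 94808 CPM. MH34 at 0.1/h thus lay between the slow and fast AAC cultures, while at 0.2/h the strains overlapped. Their rate effects were called higher in 134 members in AAC and in 110 in MH34, with medians of 1.51 and 0.40, where 32.7% of all genes were called higher in AAC and 13.5% in MH34. The count of 110 in MH34 was 18 without replicate 1 and 40 without replicate 2 of MH34 at 0.1/h, 38 without replicate 2 of MH34 at 0.2/h and 58 in the fit of the 8 libraries alone, while the median stayed between 0.38 and 0.48 over the alternatives. RPL9B of the large subunit was at 124 and 96.4 CPM in AAC at 0.1/h, 695 and 703 CPM in AAC at 0.2/h, 634 and 625 CPM in MH34 at 0.1/h and 685 and 649 CPM in MH34 at 0.2/h, an interaction of −2.58 ± 0.15 (SE, adjusted p = 1.59e-06). RPS25B of the small subunit was at 39.2 and 34.6 CPM in AAC at 0.1/h, 247 and 260.4 CPM in AAC at 0.2/h, 229.6 and 229.5 CPM in MH34 at 0.1/h and 253 and 278 CPM in MH34 at 0.2/h, an interaction of −2.57 ± 0.11 (SE, adjusted p = 2.48e-07). In both genes AAC at 0.1/h was the group apart and MH34 did not respond to the rate with a call. Their paralogs RPL9A and RPS25A were counted apart, and how reads shared by such pairs were assigned is not stated.

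**Figure D3:**
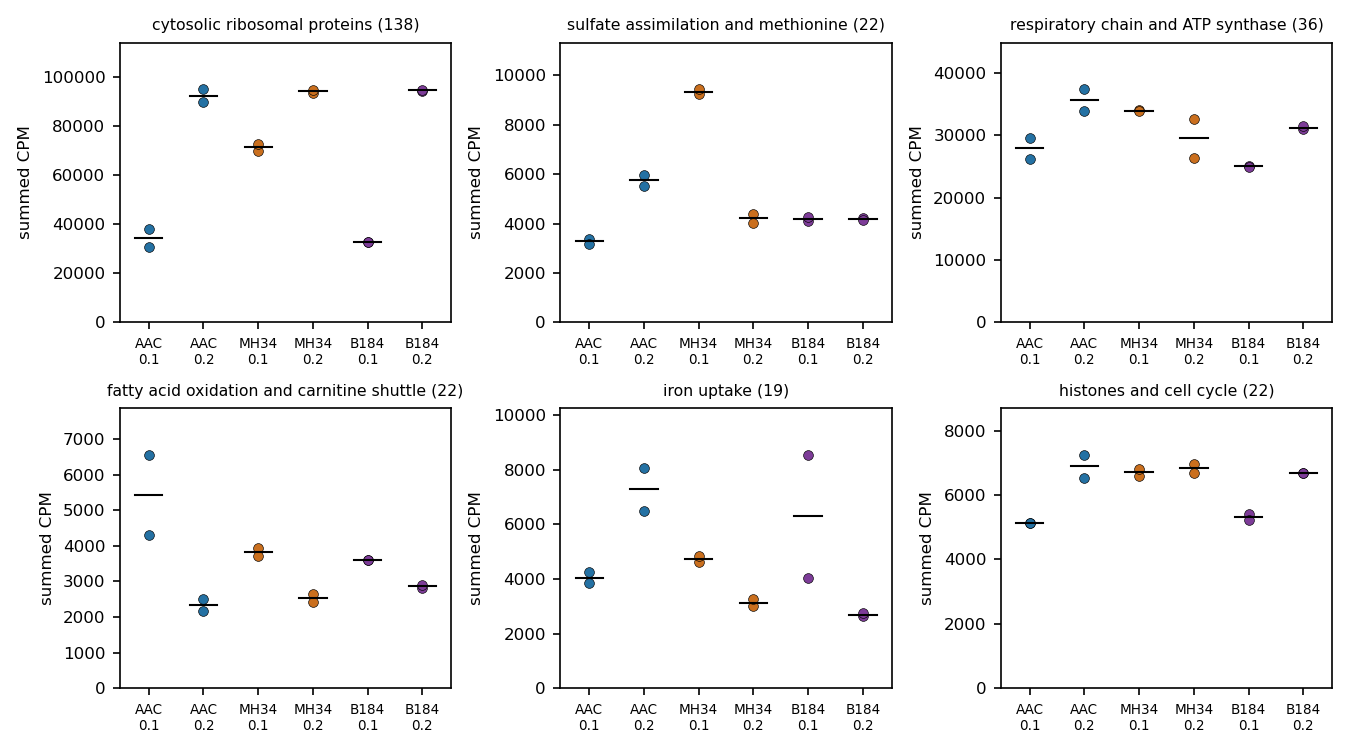
Summed CPM of 6 gene lists in each of the 12 libraries, with AAC in blue, MH34 in orange and B184 in purple, the mean of a group as a bar and the number of genes tested in parentheses; each axis starts at 0. For ribosomal proteins AAC and B184 at 0.1/h are low and MH34 at 0.1/h is at 69704 and 72764 CPM, while for sulfate assimilation MH34 at 0.1/h stands alone at the top.

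Ribosome biogenesis and mitochondrial ribosomal protein genes were split between the directions, and proteasome genes were lower in the majority. Of 69 ribosome biogenesis genes, 13 were called higher and 13 lower, with a median of 0.00. The lower members included the snoRNP proteins NOP56 at −1.04, CBF5 at −1.05 and NHP2 at −1.22, and NOP53 at −1.25. The split turned on the AAC libraries at 0.1/h, with 27 lower without replicate 1 and 28 higher without replicate 2. Of 67 mitochondrial ribosomal proteins, 16 were higher and 21 lower, also with a median of 0.00, led by MRPL23 at −1.47 and MRP2 at −1.37. Of 22 histone and cell cycle genes, 10 were lower and 5 higher. Core histone genes were the larger part of the lower ones, with HTA2 at −2.18 ± 0.17 (SE, adjusted p = 4.60e-06), and it was at 75.0 and 67.3 CPM in AAC at 0.1/h, 378 and 289.8 CPM in AAC at 0.2/h, 314 and 315 CPM in MH34 at 0.1/h and 343 and 310.1 CPM in MH34 at 0.2/h. HHT2, a histone H3 gene, was higher at 0.84, as was WHI5, for the inhibitor of cell cycle start, at 0.73. Of 32 proteasome genes, 20 were lower, led by RPN12 at −1.26 and PRE9 at −1.19, and 4 higher, PRE6, RPT2, RPN1 and RPN4, between 0.40 and 0.51. The higher count was 2 without replicate 2 of MH34 at either rate or replicate 1 of AAC at 0.2/h, and the lower count was 9 when library size alone was used for scaling.

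Genes of sulfate assimilation and methionine synthesis, which reduce sulfate to sulfide and build methionine, cysteine and S-adenosylmethionine, were mostly lower. Of 22 genes, 19 were called lower and none higher, the other 3 being SUL1, MET8 and MET28. The median was −1.52, with −1.58 to −1.30 over the alternatives. By DESeq2, by the non-robust fit, by library size alone or without replicate 1 of AAC at 0.1/h, 1 member was called higher. At an unadjusted p under 0.05 in edgeR, 1 was higher and 19 were lower. SUL2, for a sulfate permease, was at 26.2 and 22.7 CPM in AAC at 0.1/h, 33.7 and 34.4 CPM in AAC at 0.2/h, 121 and 141 CPM in MH34 at 0.1/h and 11.8 and 20.1 CPM in MH34 at 0.2/h. MH34 was above AAC at 0.1/h and below it at 0.2/h, with an interaction of −3.50 ± 0.27 (SE, adjusted p = 5.94e-06). MET3, for ATP sulfurylase, the first enzyme of the pathway, was at 51.9 and 57.7 CPM in AAC at 0.1/h, 50.5 and 50.02 CPM in AAC at 0.2/h, 405 and 391 CPM in MH34 at 0.1/h and 61.6 and 59.3 CPM in MH34 at 0.2/h. Only MH34 at 0.1/h stood out, and the interaction was −2.59 ± 0.10 (SE, adjusted p = 1.97e-07). MET10, for a subunit of sulfite reductase, was at 85.7 and 92.9 CPM in AAC at 0.1/h, 100 and 97.8 CPM in AAC at 0.2/h, 358 and 372 CPM in MH34 at 0.1/h and 84.9 and 76.4 CPM in MH34 at 0.2/h, an interaction of −2.32 ± 0.11 (SE, adjusted p = 3.82e-07). MET17, for the enzyme that takes up sulfide into homocysteine, had an interaction of −1.95 ± 0.26 (SE, adjusted p = 2.04e-04); its annotation overlaps YLR302C. SAM2, for S-adenosylmethionine synthetase, was at 427 and 280.0 CPM in AAC at 0.1/h, 1553 and 1919 CPM in AAC at 0.2/h, 1171 and 1079 CPM in MH34 at 0.1/h and 739 and 879 CPM in MH34 at 0.2/h, so the order of the strains turned here too, an interaction of −2.77 ± 0.25 (SE, adjusted p = 1.28e-05). In sum, the list stood at 9233 and 9446 CPM in MH34 at 0.1/h, above 3391 and 3173 CPM in AAC at 0.1/h, 5516 and 5979 CPM in AAC at 0.2/h and 4391 and 4039 CPM in MH34 at 0.2/h. In B184, 10 of the same genes had a lower interaction and 1 a higher one, against backgrounds of 2.23% and 3.26%, with a median of −0.66, and the AAC libraries are shared with the values above.

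Cbf1 is known to bind the letters CACGTG upstream of these genes. The 30 bases around a match are given for the genes that led the list, as a reading of R64 in the direction of the gene with CACGTG in capitals.
SUL2, chrXII:323198-323227, gene on the plus strand: tggagtaaatgtCACGTGccactgtggccg
MET3, chrX:455850-455879, gene on the plus strand: agaaaaaaaggtCACGTGaccagaaaagtc
MET10, chrVI:213051-213080, gene on the plus strand: gatataccacacCACGTGagcttatagaag
SAM2, chrIV:1454770-1454799, gene on the minus strand: aatatttctaccCACGTGactataattgag
SUL2, MET3 and MET10 each held 2 such matches. Within 600 bases of the coding start, 18 of the 22 genes held CACGTG (81.8%), against 7.29% of all genes tested and 8.35% of those called lower. In the fixed window it was 7 of 22 (31.8%), against 2.98% of all genes tested. The motif, like the 600-base window, was chosen after the values were seen.

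Iron uptake genes also had lower interactions. Of 19 tested, 11 were called lower and none higher, with a median of −1.26 (−1.34 to −1.04 over the alternatives). At an unadjusted p under 0.05 in edgeR 12 were lower and 0 higher, and by DESeq2 11 and 0. ARN1, for a siderophore transporter, was at 104 and 78.3 CPM in AAC at 0.1/h, 318 and 452 CPM in AAC at 0.2/h, 211 and 232 CPM in MH34 at 0.1/h and 101 and 118 CPM in MH34 at 0.2/h. It was above AAC in MH34 at 0.1/h and below it at 0.2/h, with an interaction of −3.09 ± 0.45 (SE, adjusted p = 8.76e-04). FRE1, for a ferric reductase, was lower in MH34 at both rates, with 476 and 322 CPM in AAC at 0.1/h, 1644 and 1879.6 CPM in AAC at 0.2/h, 207 and 249 CPM in MH34 at 0.1/h and 136 and 152 CPM in MH34 at 0.2/h. The strain effect went from −0.81 to −3.61, and FRE1 rose with the rate in AAC and fell in MH34. SIT1 and ENB1, for 2 further siderophore transporters, had interactions of −1.96 and −2.37, and FET3 and FTR1, for the high-affinity iron oxidase and permease, of −1.64 and −1.33. The list summed to 4238 and 3863 CPM in AAC at 0.1/h, 6492 and 8063 CPM in AAC at 0.2/h, 4604 and 4831 CPM in MH34 at 0.1/h and 3004 and 3252 CPM in MH34 at 0.2/h. The sum was thus higher at the faster rate in AAC and lower in MH34, without overlap. B184 at 0.1/h gave 4042 and 8527 CPM, so its replicates differed more than 2-fold.

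Aft1, the iron regulator, is known to bind sequences with the core GCACCC. The match upstream of ARN1 and that of SIT1, which lies on the other strand, are given as 30 bases of R64 in the direction of the gene, with the core in capitals.
ARN1, chrVIII:21213-21242, gene on the minus strand: atttatcaaaatGCACCCataaaagcaggt
SIT1, chrV:27457-27486, gene on the plus strand: gaacacatttgaGGGTGCaatctggttcgt
These letters, chosen after the values were seen, were found on either strand within 600 bases of the coding start in 15 of 19 iron uptake genes (78.9%), against 9.25% of all genes tested, and in the fixed window in 10 of 19 (52.6%), against 4.26%. FRE1 was searched as well and held no match within 600 bases.

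Further genes with large negative interactions included ZPS1, VEL1 and ZRT1, which are known to answer to zinc. ZPS1, for a cell surface protein, was at 10638 and 9126 CPM in AAC at 0.1/h, 26072 and 19466 CPM in AAC at 0.2/h, 13554 and 13423 CPM in MH34 at 0.1/h and 6547 and 1994 CPM in MH34 at 0.2/h (interaction −2.86 ± 0.62 SE, adjusted p = 0.00423). It rose with the rate in AAC and fell in MH34, where its replicates at 0.2/h lay far apart. VEL1 was at 247 and 138 CPM in AAC at 0.1/h, 704 and 423 CPM in AAC at 0.2/h, 572 and 575 CPM in MH34 at 0.1/h and 249.6 and 70.0 CPM in MH34 at 0.2/h (interaction −3.40 ± 0.80 SE, adjusted p = 0.00918). ZRT1, for the high-affinity zinc transporter, was at 2906 and 2608 CPM in AAC at 0.1/h, 11134 and 9451 CPM in AAC at 0.2/h, 10405 and 10352 CPM in MH34 at 0.1/h and 7542 and 5106 CPM in MH34 at 0.2/h, so the strain effect turned from 1.91 at 0.1/h to −0.70 at 0.2/h, an interaction of −2.62 ± 0.25 (SE, adjusted p = 1.51e-05). No list of zinc genes was fixed, so no count is given. YKL068W-A and YBL108W, without a named function, had interactions of −3.17 and −3.09. snR39, a small nucleolar RNA whose ID was not matched to the annotation, was at 1.58 and 0.805 CPM in AAC at 0.1/h, 24.5 and 31.2 CPM in AAC at 0.2/h, 6.55 and 6.74 CPM in MH34 at 0.1/h and 10.83 and 16.4 CPM in MH34 at 0.2/h, an interaction of −3.52 ± 0.42 (SE, adjusted p = 5.70e-05). Replicate 2 of AAC at 0.1/h held fewer than 10 counts of snR39, and its overlap with other genes was not checked.

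Of 36 respiratory chain and ATP synthase genes, 25 were called lower and 1, CYB2 for lactate dehydrogenase, higher at 1.47. CYB2 was not called without either MH34 replicate at 0.1/h, without replicate 2 of AAC at 0.2/h or without replicate 1 of MH34 at 0.2/h, and 4 members were higher without replicate 1 of AAC at 0.1/h, 2 without replicate 1 of AAC at 0.2/h and 3 without replicate 2 of MH34 at 0.2/h. The median was −0.65 (−0.82 to −0.43 over the alternatives). The median strain effect was 0.41 at 0.1/h and −0.25 at 0.2/h. QCR8, for a subunit of complex III, was at 49.0 and 62.2 CPM in AAC at 0.1/h, 183 and 147 CPM in AAC at 0.2/h, 234 and 229 CPM in MH34 at 0.1/h and 185 and 139 CPM in MH34 at 0.2/h, an interaction of −2.08 ± 0.23 (SE, adjusted p = 5.71e-05). The cytochrome oxidase genes COX7 and COX6 had interactions of −2.01 and −1.79, and ATP20 of the ATP synthase one of −1.58. In each of these genes AAC at 0.1/h was the low group. The Hap2/3/4/5 complex, the activator of respiratory genes, is known to bind CCAAT, which was found on either strand between 250 bases before and 50 after the start in 29 of the 36 genes (80.6%), against 43.6% of all genes tested. COX5B, the subunit made under low oxygen, had an interaction of 1.75.

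In oxidative stress defence, 10 of 22 genes were called lower and 3 higher. AHP1, for a thiol peroxidase, was at 689 and 644 CPM in AAC at 0.1/h, 1966 and 2058 CPM in AAC at 0.2/h, 1298 and 1258 CPM in MH34 at 0.1/h and 837 and 857 CPM in MH34 at 0.2/h. The strain effect turned from 0.94 at 0.1/h to −1.25 at 0.2/h, an interaction of −2.19 ± 0.15 (SE, adjusted p = 2.44e-06). The peroxiredoxin gene TSA1 at −1.57, the thioredoxin gene TRX2 at −1.50 and the glutaredoxin gene GRX2 at −1.43 followed, and GRX2 overlaps EMI1 in the annotation. The 3 higher members were TSA2 at 1.19, the cytochrome c peroxidase gene CCP1 at 0.78 and the glutathione synthetase gene GSH2 at 0.29.

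Lipid synthesis genes were lower in the majority. Of 25 ergosterol genes, 15 were called lower and 6 higher, with a median of −0.62 (−0.67 to −0.40 over the alternatives). The higher count was 3 without replicate 2 of MH34 at 0.1/h, replicate 2 of AAC at 0.2/h or replicate 1 of MH34 at 0.2/h. ERG13, for the hydroxymethylglutaryl-CoA synthase, was at 258 and 239.8 CPM in AAC at 0.1/h, 679 and 627 CPM in AAC at 0.2/h, 695 and 728 CPM in MH34 at 0.1/h and 641 and 561 CPM in MH34 at 0.2/h, an interaction of −1.63 ± 0.13 (SE, adjusted p = 4.60e-06). ERG25, a sterol methyl oxidase gene, and ERG11, for the lanosterol demethylase, had interactions of −1.32 and −1.22, and the higher members were led by HMG2, a reductase isozyme gene, at 0.78. Of 16 fatty acid and phospholipid genes, 9 were lower and 3 higher, CKI1, INO4 and OPI1, none of which was called without replicate 2 of MH34 at either rate, while 1 member was without replicate 1 of AAC at 0.1/h or either replicate of AAC at 0.2/h. OLE1, for the fatty acid desaturase, was at 1002 and 1028 CPM in AAC at 0.1/h, 1382 and 1436 CPM in AAC at 0.2/h, 2331 and 2459 CPM in MH34 at 0.1/h and 1101 and 1174 CPM in MH34 at 0.2/h, high in MH34 at 0.1/h alone, with an interaction of −1.55 ± 0.13 (SE, adjusted p = 5.68e-06). The inositol synthase gene INO1 had −1.30 (adjusted p = 0.0358), and lost its call without replicate 2 of AAC at 0.1/h, replicate 1 of MH34 at either rate or replicate 2 of AAC at 0.2/h. INO1 also lost it in the fit of the 8 libraries alone and with library size alone for scaling.

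Amino acid synthesis genes were mixed with more lower than higher. Of 44 tested, 20 were called lower and 6 higher, with a median of −0.28. In the fit of the 8 libraries alone, 13 were lower, and with library size alone 11. SER33, for an enzyme of serine synthesis, was at 69.4 and 69.1 CPM in AAC at 0.1/h, 139 and 161 CPM in AAC at 0.2/h, 214 and 226 CPM in MH34 at 0.1/h and 135 and 124 CPM in MH34 at 0.2/h, an interaction of −1.89 ± 0.11 (SE, adjusted p = 1.59e-06). The homocitrate synthase gene LYS20, which has the near copy LYS21, was at −1.72, and GCN4, for the general activator of amino acid genes, at −1.13. BAT2, for the cytosolic branched-chain aminotransferase, was the largest higher one at 1.67 ± 0.13 (SE, adjusted p = 3.91e-06). Of 28 genes for the use of nitrogen sources, 8 were lower and 5 higher, with GDH1, for the glutamate dehydrogenase that assimilates ammonium, at −1.52. Without replicate 1 of MH34 at 0.1/h, 2 were higher.

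In the secretory pathway entered by α-amylase, ER folding genes were called less often than all genes tested, and N-glycan genes more often. CWH41, for the glucosidase that trims N-glycans, had an interaction of 0.07 (adjusted p = 0.666), PDI1, for protein disulfide isomerase, of 0.34 (adjusted p = 0.143), and KAR2, for the ER Hsp70 chaperone, of −0.29 (adjusted p = 0.284), and none was called. PDI1 was at 1610.3 and 1446 CPM in AAC at 0.1/h, 1821 and 2118 CPM in AAC at 0.2/h, 1849.5 and 1925 CPM in MH34 at 0.1/h and 2755 and 3402 CPM in MH34 at 0.2/h, so it was above AAC at both rates in each replicate. Its strain effect was 0.30 at 0.1/h, not called (edgeR, adjusted p = 0.0565), and 0.64 at 0.2/h. PDI1 lies on chromosome III, whose genes had higher median strain effects, 0.84 at 0.1/h and 0.99 at 0.2/h. KAR2 was at 1600.4 and 1386 CPM in AAC at 0.1/h, 3176 and 4119 CPM in AAC at 0.2/h, 1085 and 1137 CPM in MH34 at 0.1/h and 1964 and 2481 CPM in MH34 at 0.2/h, below AAC at both rates. Of 25 ER folding and unfolded protein response genes, 8 were called higher and 1, the J protein gene ERJ5, lower at −0.58. Together these calls made up a smaller share of the list than the 53.1% called over all genes tested. The higher count was 16 with library size alone. The higher members were led by MNS1, for the ER mannosidase, at 1.21, the J protein gene JEM1 at 0.83, GTB1, a glucosidase subunit gene, at 0.70, and SEC61, for the translocation channel, at 0.69. SEC61 was at 691 and 623 CPM in AAC at 0.1/h, 608 and 641 CPM in AAC at 0.2/h, 289.9 and 313 CPM in MH34 at 0.1/h and 428 and 493 CPM in MH34 at 0.2/h, so MH34 was below AAC at both rates and less so at 0.2/h. HAC1, for the transcription factor of the unfolded protein response, behaved likewise, with strain effects of −1.31 and −0.70. Its total count says nothing of splicing, which makes the active form. Of 25 N-glycan genes, 12 were lower and 6 higher, and the higher count fell to 1 without replicate 1 of MH34 at 0.1/h and to 3 without replicate 2 of that group, replicate 1 of AAC at 0.1/h, either replicate of AAC at 0.2/h or replicate 2 of MH34 at 0.2/h. OST4, for the smallest subunit of the oligosaccharyltransferase, was at 21.9 and 16.2 CPM in AAC at 0.1/h, 106 and 97.0 CPM in AAC at 0.2/h, 87.5 and 93.4 CPM in MH34 at 0.1/h and 95.1 and 85.2 CPM in MH34 at 0.2/h, an interaction of −2.42 ± 0.16 (SE, adjusted p = 2.22e-06). OST5 and SWP1 of the same complex had −1.06 and −0.98, while its catalytic subunit gene STT3 was higher at 0.30.

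Reserve carbohydrate genes had few calls, on counts that 1 library could move, and heat shock genes were split. Of 15 glycogen genes, 3 were called higher, GAC1 at 2.23, GIP2 at 1.79 and GLG2 at 0.90, and none lower by edgeR, also at an unadjusted p under 0.05 or by DESeq2. Of 7 trehalose genes, 3 were higher, ATH1 at 1.14, TPS2 at 0.96 and NTH2 at 0.82, and none lower (1 at an unadjusted p under 0.05, 0 by DESeq2). Without replicate 1 of AAC at 0.1/h, 10 glycogen genes and 6 trehalose genes were higher and 1 glycogen gene lower, and without replicate 2 of that group 1 trehalose gene was lower. GIP2 lost its call in each of the fits without 1 library of MH34 or of AAC at 0.2/h, and ATH1 without replicate 2 of AAC at 0.2/h. GIP2 also lost it in the fit of the 8 libraries alone, without the low-count filter and with the replicate number as a block. HSP12, for a membrane-protecting heat shock protein, was at 703 and 1605 CPM in AAC at 0.1/h, 299 and 207 CPM in AAC at 0.2/h, 865 and 808 CPM in MH34 at 0.1/h and 777 and 935 CPM in MH34 at 0.2/h, an interaction of 2.22 ± 0.49 (SE, adjusted p = 0.00543). Of 25 heat shock genes, 6 were higher and 5 lower, among the latter HSP10, for a mitochondrial chaperonin, at −1.29 and SSA2, a cytosolic Hsp70 gene with the near copy SSA1, at −1.29. The lower count was 3 without replicate 1 of MH34 at 0.1/h or replicate 1 of AAC at 0.2/h. The transcription factor genes USV1 and XBP1, both stress-responsive, changed the order of the strains. XBP1 was at 297 and 519 CPM in AAC at 0.1/h, 83.5 and 73.2 CPM in AAC at 0.2/h, 189.6 and 183 CPM in MH34 at 0.1/h and 157 and 155 CPM in MH34 at 0.2/h, an interaction of 2.13 ± 0.30 (SE, adjusted p = 4.49e-04). USV1 had 2.98 ± 0.65 (SE, adjusted p = 0.00665), the glycogen debranching inhibitor gene IGD1 2.27 ± 0.47 (SE, adjusted p = 0.00482), and ICL2, for the mitochondrial 2-methylisocitrate lyase, 2.25 ± 0.33 (SE, adjusted p = 6.70e-04). The stress response element CCCCT was found on either strand between 250 bases before and 50 after the start in 23.7% of genes called higher, 18.9% of those called lower and 21.9% of all tested. The PAC element GATGAG was found in 17.9%, 18.3% and 20% in the same order, and the unfolded protein response element CAGCGTG in 1.08%, 1.76% and 1.17%. In the same window, the carbon source-responsive element was found in 11.5%, 9.59% and 10.2%.

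**Figure D4:**
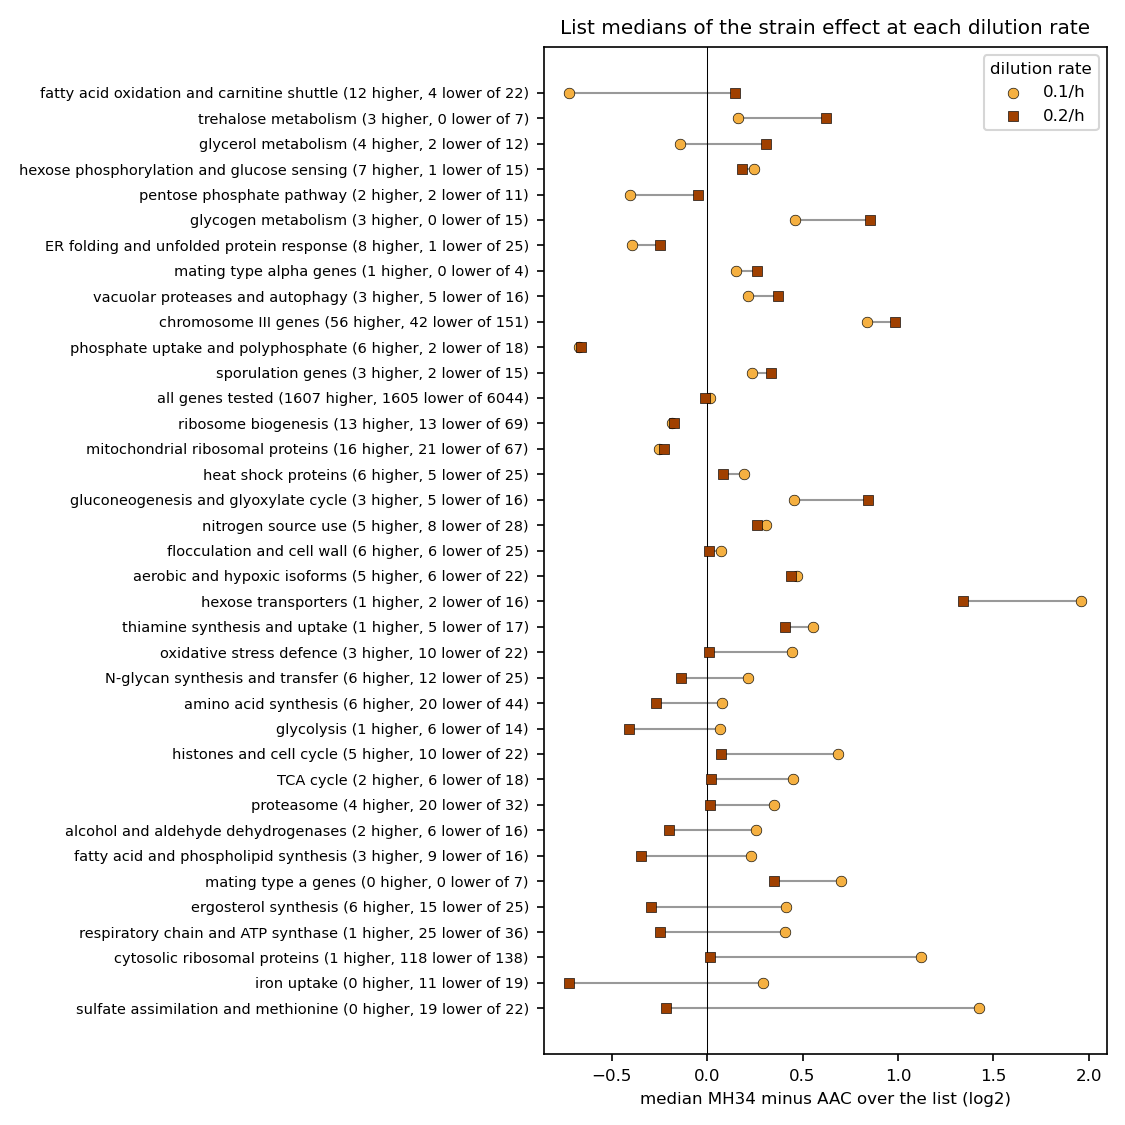
Median strain effect (MH34 minus AAC, log2) of each gene list at 0.1/h (circles) and 0.2/h (squares), sorted by the median interaction, with the number of members called higher, called lower and tested beside each name. The widest gaps to the left at 0.2/h are in sulfate assimilation, ribosomal proteins and iron uptake, and the widest to the right is in fatty acid oxidation.

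The remaining lists had few or mixed calls. Of 12 glycerol genes, 4 were called higher, with the glycerol importer gene STL1 at 2.63 and GUT2, for glycerol-3-phosphate dehydrogenase, at 1.74, and 2 lower, GPP1 and GPP2 for glycerol-3-phosphatase. GUT2 lost its call without replicate 1 of MH34 at either rate or replicate 2 of AAC at 0.2/h. In the pentose phosphate pathway, 2 of 11 were higher and 2 lower, with the transketolase gene TKL2 at 2.12 and the ribose isomerase gene RKI1 at −1.19. TKL2 lost its call in the fit of the 8 libraries alone. TKL2 was not called without any 1 of the libraries of MH34 or of AAC at 0.2/h, and the higher count was 5 without replicate 1 of AAC at 0.1/h. Of 18 phosphate genes, 6 were higher, with PHO84, for the phosphate transporter, at 1.90 on strain effects of −3.29 and −1.38, and 2 lower, PHO11 and SPL2. The lower count ranged from 0 without replicate 2 of MH34 at 0.1/h, of AAC at 0.2/h or of MH34 at 0.2/h to 6 without replicate 1 of AAC at 0.2/h, with 1 without replicate 2 of AAC at 0.1/h or replicate 1 of MH34 at 0.1/h. Of 17 thiamine genes, 5 were lower and 1 higher, with THI4 of the thiazole branch at −1.47. The lower count was 2 without replicate 1 of AAC at 0.2/h and 3 without replicate 2 of MH34 at either rate, and the higher count was 0 without replicate 2 of MH34 at 0.1/h and 3 without replicate 2 of AAC at 0.1/h. In the lists for hypoxic isoforms, cell wall genes and vacuolar proteases, 5 of 22, 6 of 25 and 3 of 16 were higher and 6, 6 and 5 lower. Without replicate 1 of AAC at 0.1/h 7 vacuolar genes were higher, and without either replicate 2 at 0.1/h 1 was. Without replicate 1 of MH34 at 0.1/h or of AAC at 0.2/h, 3 hypoxic isoforms were higher. CSS1, a cell wall gene of which MH34 had little transcript at either rate, had an interaction of −1.42, which was not called without replicate 2 of MH34 at 0.2/h. SPI1, for a stress-induced wall protein, had 2.28 ± 0.14 (SE, adjusted p = 1.59e-06), with AAC at 0.2/h as the low group (20.8 and 18.9 CPM).

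Of 151 chromosome III genes, 56 were called higher and 42 lower. Their median strain effect was 0.84 at 0.1/h and 0.99 at 0.2/h, whereas that of each of the other 15 nuclear chromosomes lay between −0.11 and 0.13 at 0.1/h and between −0.08 and 0.03 at 0.2/h. The raised level of this chromosome in MH34 was thus seen at both rates, with a median interaction of 0.15, the highest of the 16 nuclear chromosomes, next to 0.15 for chromosome I. None of 7 a-specific genes was called by edgeR, with 1 lower at an unadjusted p under 0.05 and 1 lower by DESeq2. In the fits without 1 library, 1 was higher without replicate 2 of AAC at 0.1/h or replicate 1 of AAC at 0.2/h, 1 was lower without replicate 1 of AAC at 0.1/h or of MH34 at 0.2/h, and 2 were lower without replicate 2 of AAC at 0.2/h. Of the 4 α-specific genes MF(ALPHA)2 was called higher, at 1.92, from 3.15 and 3.09 CPM in AAC at 0.1/h, and 1 was lower without replicate 2 of AAC at 0.2/h. MF(ALPHA)2 was at 0.892 and 0.218 CPM in AAC at 0.2/h, which is 8 and 2 counts. It was at 7.29 and 7.07 CPM in MH34 at 0.1/h and 4.73 and 5.07 CPM in MH34 at 0.2/h. Its mean of 33.6 counts lies below the 50 asked of the largest interactions. Of 15 sporulation genes, 3 were higher and 2 lower, and their summed level was 183.9 to 252 CPM over the 8 libraries. The lower count was 1 without replicate 1 of AAC at 0.1/h, either MH34 replicate at 0.1/h, replicate 2 of AAC at 0.2/h or replicate 1 of MH34 at 0.2/h.

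Gene length and, in the highest decile, GC content moved with the interaction. Over the 5466 genes that reached 50 counts on average, the median interaction rose from −0.25 in the shortest decile (78 to 486 bases) to 0.26 in the longest (from 2865 bases). Without the ribosomal proteins the shortest decile was at −0.20. In the libraries of AAC at 0.1/h, genes of the shortest decile lay −0.18 and −0.11 from their mean over the 12 libraries (median, log2), and in those of B184 at 0.1/h −0.21 and −0.22. The other 8 libraries, MH34 at 0.1/h included, lay between 0.07 and 0.15. The median length of ribosomal protein genes was 771 bases against 1230 over all genes. With trends on length and GC content removed from each library, an alternative chosen after seeing the data, 3105 genes were called, of which 2735 were among the 3212. The ribosomal protein median was then −0.92 with 109 called lower, that of the respiratory chain −0.49, that of sulfate assimilation −1.53, that of iron uptake −1.24 and that of fatty acid oxidation 0.63. RNA integrity was not analysed here, and its part was not tested.

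**Figure D5:**
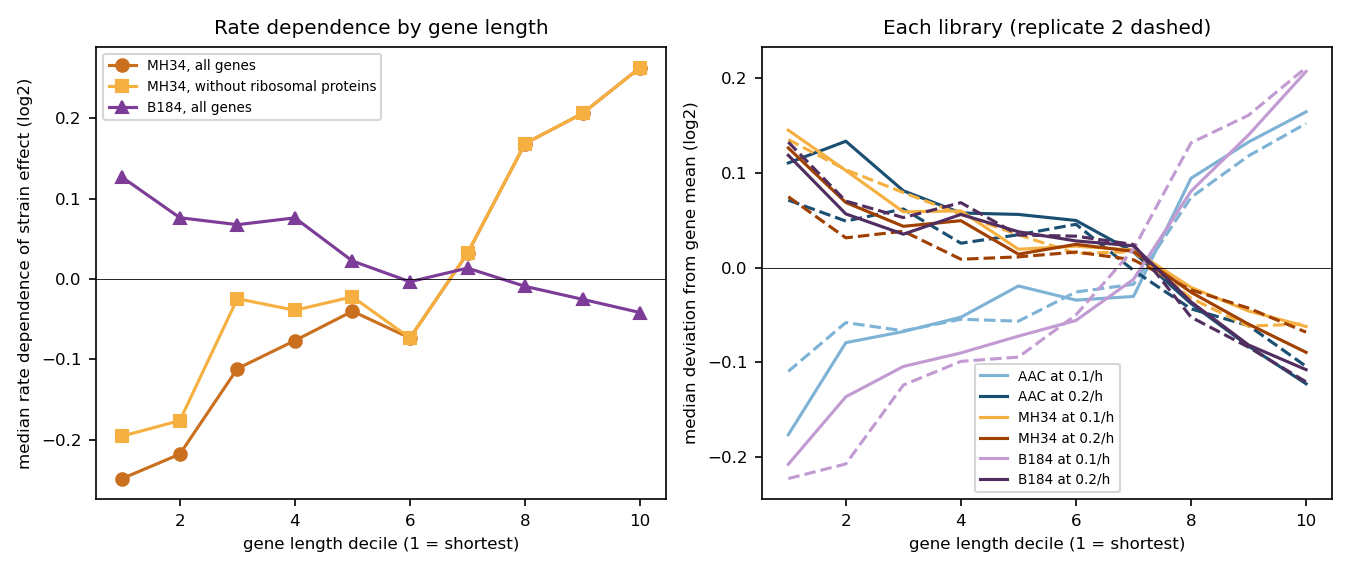
Left, median interaction (log2) by decile of gene length for MH34 with all genes, MH34 without ribosomal proteins, and B184. Right, median deviation (log2 CPM) of each decile from the gene means in each of the 12 libraries, with replicate 2 dashed. The 4 libraries of AAC and B184 at 0.1/h rise with length and the other 8 fall.

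B184, which descends from MH34, was compared to show where MH34 differed. The rate dependence of the B184 strain effect was called in 332 genes (5.49%), 3.26% higher and 2.23% lower, against 3212 for MH34, and both contrasts use the same AAC libraries. The rate effects of MH34 and B184 were therefore also compared without AAC, and they differed in 3134 genes (51.9%), 1455 higher (24.1%) in MH34 and 1679 lower (27.8%). Both strains had received ethanol at 0.1/h. This comparison does not remove the trend with gene length, since B184 and MH34 differed in it at 0.1/h. Genes of the shortest decile lay −0.21 and −0.22 from their mean in B184 and 0.15 and 0.14 in MH34 at that rate. For ribosomal proteins, 122 of 138 rose less with the rate in MH34 than in B184, and the median difference was −1.26. B184 summed to 32757 and 32693 CPM at 0.1/h and 94283 and 94588 CPM at 0.2/h, close to AAC at both rates. For respiratory genes 24 of 36 were lower in this comparison, for sulfate assimilation 16 of 22, for ergosterol 15 of 25 and for the proteasome 20 of 32, against 27.8% of all genes. For fatty acid oxidation, 4 of 22 were lower and 2 higher, and for iron uptake 2 of 19 were lower and 4 higher. Against the shared AAC libraries, the B184 interaction of fatty acid oxidation genes had a median of 0.93, with 11 of 22 called higher and 2 lower, and that of iron uptake genes had a median of −1.68, with 9 of 19 lower and 0 higher, beside backgrounds of 3.26% higher and 2.23% lower. The interactions of B184 for single genes, each against the same AAC values, were 7.39 for ADH2, 4.86 for CTA1, 3.001 for FOX2, −3.69 for HXT3, −3.69 for FRE1, −2.31 for PCK1 and −2.13 for ICL1, all called, and 0.02 for RPL9B, −0.16 for HTA2 and −0.08 for OST4, none called. The rate effects of MH34 and B184 differed with a call for RPL9B, HTA2 and OST4, by −2.61, −2.02 and −2.34, and for PCK1 and ICL1, by −2.03 and −1.45. For ADH2, CTA1, FOX2 and HXT3 the difference was not called, at −0.84, −0.27, 0.40 and −0.14 with standard errors of 1.06, 0.54, 0.44 and 0.32.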

How the data were processed

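Cell pellets of chemostat cultures gave 12 libraries, 2 biological replicates of each of 3 strains at 2 dilution rates, and groups were taken from the sample titles. The authors prepared stranded mRNA libraries, mapped paired reads to the R64-1-1 genome with its Ensembl annotation and counted them with the nf-core pipeline, and the deposited values are raw counts per gene without normalization. The submitters' processing notes name TopHat2 2.0.12, Cufflinks 2.2.1 and Subread 1.4.6 without roles. The strand setting and the handling of reads that fit several genes are not given in the sources used here, so counts of overlapping and near-identical genes (at least 95% identity over at least 50% of the length by BLAST 2.17.0) are uncertain.

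Totals were 6040221 to 10785960 counts per library. All 12 libraries were fitted as 6 groups in edgeR 4.0.16 under R 4.3.3 (TMM, filterByExpr, robust quasi-likelihood fit), so that 2 replicates per group share 1 estimate of the spread. P-values set each change against this shared spread between cultures. The groups differed in spread, from a chi-square of 29.5 per degree of freedom in AAC at 0.1/h to 1.82 in B184 at 0.2/h. The fit was tested on simulated data with known changes. DESeq2 1.42.0 served as an alternative, as did other normalizations, filters, fits without 1 library, a replicate block and the removal of length and GC trends. Of the 7126 IDs, 6048 matched the RefSeq annotation of R64, which gave names, coordinates and the upstream sequences. Python 3.11.15 with pandas 2.3.3 summarised the fits and matplotlib 3.10.9 drew the figures.

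The members and the 36 gene lists were chosen with earlier results of these data known, so lists are described by counts and medians, with no test of the list. Named by rule were the 12 largest interactions in each direction among called genes that averaged 50 counts or more in the 8 libraries and whose replicate log2 ratios did not overlap between the rates, the 6 largest in each direction among those with opposite called strain effects, up to 4 called members of each list with the largest interaction, and CWH41, PDI1, KAR2 and TPI1. Other genes were named after their values were seen. Promoters were taken from 250 bases before to 50 after the annotated start, as fixed, from the genome sequence, and from 600 bases before it, a window chosen after seeing the data. The annotated start is the coding start in 6021 of 6027 coding genes.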

Additional observations from a re-analysis of the deposited data

Results flagged for a closer look

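The MH34 strain effect differed between the dilution rates in 3212 genes by the test of the difference itself, in edgeR with Benjamini-Hochberg adjustment, and 339 of them had called strain effects of opposite sign at the rates. The rate effect differed between MH34 and B184 in 3134 genes by the same test. Among genes whose strain effect changed sign, the largest positive interactions on the log2 scale were those of CTA1 at 4.59, TMA10 at 3.14, USV1 at 2.98, IGD1 at 2.27, ICL2 at 2.25 and XBP1 at 2.13. The largest negative ones were those of snR39 at −3.52, SUL2 at −3.50, VEL1 at −3.40, ARN1 at −3.09, SAM2 at −2.77 and ZRT1 at −2.62. Of these, snR39 had fewer than 10 counts in replicate 2 of AAC at 0.1/h. With 2 libraries a group, no library could be tested for standing apart from its own group.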

How the results depend on the processing

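No called interaction of a named gene changed sign under the alternatives. The median interaction of 13 of the 36 lists did, among them ribosome biogenesis (−0.20 to 0.22), mitochondrial ribosomal proteins (−0.12 to 0.22), gluconeogenesis (−0.35 to 0.14), hexose transporters (−0.96 to 0.22) and heat shock proteins (−0.15 to 0.20). The count of 3212 genes with a rate-dependent strain effect lay between 2685, without replicate 1 of MH34 at 0.1/h, and 3430, with library size alone, and 2673 to 3191 of the 3212 genes were called again in each of the 18 alternatives, with 0 of opposite sign. DESeq2 called 2962. Library size alone moved the median interaction of all genes from 0.02 to 0.24 and the share of higher calls from 1607 of 3212 to 68.2% of 3430. With an absolute log2 change of at least 1, 958 genes were left, 373 higher and 585 lower. For the strain effect at 0.2/h, library size alone gave 1621 genes higher and 493 lower in place of 1052 and 948, and leaving out 1 library gave 617 to 1154 lower. For the rate effect in MH34, the fit of the 8 libraries alone called 936 genes (469 higher, 467 lower), and leaving out 1 library gave 433 to 2170 genes, 170.0 to 1089 higher and 263 to 1081 lower. The causes were not tested.

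Replicate numbers were not used as pairs in the main fit. Same-numbered libraries of the groups correlated in their deviations with r of −0.30 to 0.45, over 0.1 in 2 of 15 pairs of groups. The highest r, 0.45, was between AAC and MH34 at 0.2/h. AAC at 0.1/h had r of −0.30 with AAC at 0.2/h and −0.22 with MH34 at 0.2/h. Whether libraries of the same number share a source of variation was not tested. With the replicate number as a block, 3139 genes were called for the interaction (1562 higher, 1577 lower), and 4 of the 153 named called genes lost their call. With 2 libraries per group and 1 shared estimate of the spread, a small change that was not called is not shown to be absent.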
